A study of Nannospalax ehrenbergi and Mus musculus with 25 samples.

Results

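The genes described here are 10 genes of the unfolded protein response and the integrated stress response, chosen by name: Hspa5, Hsp90b1, Pdia4, Ern1, Xbp1, Atf6, Eif2ak3, Atf4, Ddit3 and Trib3. All 10 were found among the 27988 genes listed for Spalax and among the 47593 genes listed for mouse, and each passed the filter on low values in every comparison. Their RNA was measured by RNA-seq in 25 libraries, 16 from the blind mole rat Spalax, a long-lived subterranean rodent, and 9 from C57BL/6 mice. Treated animals had received 1 injection of 3-methylcholanthrene (3MCA), a carcinogen that induces sarcomas, under the skin at the left of the neck.

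The Spalax were wild-caught animals with an estimated age of 2 to over 10 years, and the mice were males aged 3 to 4 months. The dose was 1 mg in Spalax and 200 µg in mice. The Spalax groups were 4 uninjected females (control), 4 injected animals without a tumor (tolerant, 3 males and 1 female, 2 sampled at 18 months and 2 at 30 months), 2 females with a benign granuloma (14 and 16 months) and 2 animals with a fibrosarcoma (a female at 18 months and a male at 30 months). The mouse groups were 3 uninjected controls and 3 animals with a fibrosarcoma at 14, 12 and 11 weeks. Each tumor-bearing animal gave a library of the injected side (IS, the tumor) and one of the uninjected side (UIS), and both carry the animal's number below. The controls were sampled on an uninjected side and the tolerant animals on the injected side, so that side, sex and 3MCA cannot be told apart in that comparison. The control and tolerant libraries carry dual indexes and the libraries of tumor-bearing animals single ones, so that index design and tumor bearing cannot be told apart either.

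The unfolded protein response answers to misfolded protein in the endoplasmic reticulum (ER). The kinase Ern1 (Ire1) cuts the Xbp1 mRNA, whose spliced form encodes a transcription factor for ER-associated degradation and secretory capacity. The membrane protein Atf6 is cleaved to a factor that raises ER chaperones. The kinase Eif2ak3 (Perk) phosphorylates the initiation factor eIF2α, as do the other kinases of the integrated stress response, which lowers general translation but favors translation of Atf4. Atf4 in turn raises Ddit3 (Chop), Trib3 and genes of amino acid supply. Hspa5 (BiP) and Hsp90b1 (Grp94) are the major ER chaperones, and Pdia4 is a disulfide isomerase of the same compartment. Cells that secrete much protein, such as matrix-producing fibroblasts and plasma cells, are rich in these folding proteins. Read counts per gene show neither splicing of Xbp1 nor cleavage of Atf6, phosphorylation or translation.

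The stretch that Ire1 removes is shown because both forms of Xbp1 add to the same count. In mouse it lies at chr11:5524279-5524304 on the plus strand of GRCm38, in exon 4 of the 5 exons of the GENCODE transcript Xbp1-201. The 26 bases in capitals are those between the paired CNGCAG sites, each cut after its 3rd base. A search for such pairs found 1 more pair of this spacing in the transcript, in exon 1, which is not the known site.

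Xbp1: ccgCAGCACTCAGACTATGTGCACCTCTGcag

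In the same annotation Hspa5 lies at chr2:34771970-34777547, Hsp90b1 at chr10:86690209-86705509, Pdia4 at chr6:47796141-47813430, Ern1 at chr11:106394650-106487852 and Xbp1 at chr11:5520659-5525893. Atf6 lies at chr1:170704674-170867771, Eif2ak3 at chr6:70844515-70905245, Atf4 at chr15:80255184-80257541, Ddit3 at chr10:127290774-127296288 and Trib3 at chr2:152337422-152344032. Exons of another gene on the same strand cover 5.38% of the exon bases of Hsp90b1 and 0.584% of those of Pdia4. Exons of a gene on the other strand cover 10.3% of the exon bases of Hsp90b1, 8.05% of those of Eif2ak3 and 4.73% of those of Ddit3. The libraries were stranded but the strand setting of the counting is not given in the sources used here.

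The libraries held 17025447 to 23386729 reads in Spalax and 22143060 to 31179183 in mouse. All IS libraries were labelled muscle, but the summed level of 6 muscle fiber markers was 198.6 to 2019 normalised counts in the 4 Spalax IS libraries against 632189 to 2590391 in the 12 other Spalax libraries. In mouse 8 such markers summed to 117.3 to 54351 in the IS against 1198091 to 5093459 in the other 6 libraries. The 8 fibroblast markers summed to 8269 to 202555 in Spalax muscle and 115072 to 1891385 in the IS, and to 5116 to 58916 and 143156 to 180264 in mouse. Of these, Col3a1 alone reached 790955 in the Spalax IS. Thy1 in Spalax (368.6 to 14149 and 44.88 to 12547) and Dcn in mouse (3048 to 18929 and 832.7 to 15028) ran lower in the IS. Dcn in Spalax overlapped (4837 to 32391 and 3483 to 55605). The ranges of the others began and ended higher in the IS. The 8 macrophage markers summed to 998.5 to 15731 in Spalax muscle and 9388 to 37010 in the IS, and to 411.7 to 4669 and 3712 to 21255 in mouse. In mouse Cd163 ran lower in the IS (61.9 to 1303 and 35.15 to 137.4), and the ranges of the other macrophage markers began and ended higher there. In Spalax the ranges of all macrophage markers overlapped between muscle and IS. Those of Cd163 (5.889 to 107 and 26.86 to 67.07) and Msr1 (5.361 to 1363 and 258.8 to 829.6) began higher but ended lower in the IS. The other macrophage markers began and ended higher there. The 5 markers of dividing cells summed to 249.6 to 1572 and 5548 to 13097 in Spalax, and to 25.91 to 1316 and 11948 to 15770 in mouse. The 7 plasma cell markers summed to 81.76 to 2680 and 2187 to 4837 in Spalax, and to 367.7 to 733.4 and 2405 to 3208 in mouse. Of these 7, Sdc1 lay at 57.63 to 1642 and 1445 to 3970 in Spalax and at 85.6 to 290.2 and 1317 to 2148 in mouse, and Prdm1 at 0 to 53.3 and 106.1 to 269.3 in Spalax and 26.12 to 74.97 and 273.7 to 488.4 in mouse. Tnfrsf17 was at 0 in 9 of the 12 Spalax muscle libraries and at 1.199 to 8.459 in the Spalax IS, and at 0 to 6.383 and 0 to 1.186 in mouse. The ranges of Igj (Jchain in mouse), Mzb1, Pou2af1 and Irf4 overlapped between muscle and IS in both species. Mzb1 lay at 0 to 30.78 and 2.903 to 19.94 in Spalax and at 17.02 to 30.15 and 4.745 to 28.43 in mouse. In mouse Irf4 ran lower in the IS, at 56.83 to 453.9 and 10.53 to 119.4. Among the 5 endothelial markers the sums were 6688 to 12400 and 2971 to 4571 in Spalax, and 7269 to 17454 and 1340 to 9540 in mouse. The 5 fat cell markers summed to 73.02 to 20242 and 2.399 to 45.73 in Spalax, and to 1510 to 84997 and 12.63 to 24.29 in mouse. In such bulk samples fewer cells of a type and less RNA per cell cannot be told apart, and the part of this tissue difference in the results below was not tested.

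The library labelled UIS of granuloma animal 976 carries another animal number (979) in its run name, and its Hspa5 and Hsp90b1 lay far above the other UIS libraries. Tolerant animal 2251 had the lowest muscle fiber sum of its group (654378) and the highest fibroblast, macrophage and plasma cell sums of all Spalax muscle libraries. The UIS of mouse 512 had the highest muscle fiber sum (5093459) and the lowest fibroblast sum (5116) of the mouse libraries. Values without these libraries are given beside the members they stood apart in.

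The 3 chaperone members Hspa5, Hsp90b1 and Pdia4 rose together in the fibrosarcomas of Spalax and mouse, and of these Pdia4 alone was called in the granulomas too. Against UIS, Eif2ak3 was called higher in the Spalax granulomas and the mouse tumors, and Trib3 in the Spalax fibrosarcomas. Both were higher on the IS of each tumor-bearing animal, and no member was called between Spalax fibrosarcoma and granuloma. Pdia4, Hsp90b1, Eif2ak3, Ern1 and Trib3 were called higher in the Spalax tumors than in the tolerant animals. Atf4 was called lower in the mouse tumors than in UIS, where the tumors lay at the level of the uninjected controls. It was also called lower in the Spalax tumors than in the tolerant animals. These Atf4 calls were lost with total reads as the scale. Ddit3, Xbp1 and Atf6 passed the test in none of the 4 comparisons with tumors on the scale of the authors. Calls are at a limma adjusted p of at most 0.05 over all genes tested.

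**Figure D1:**
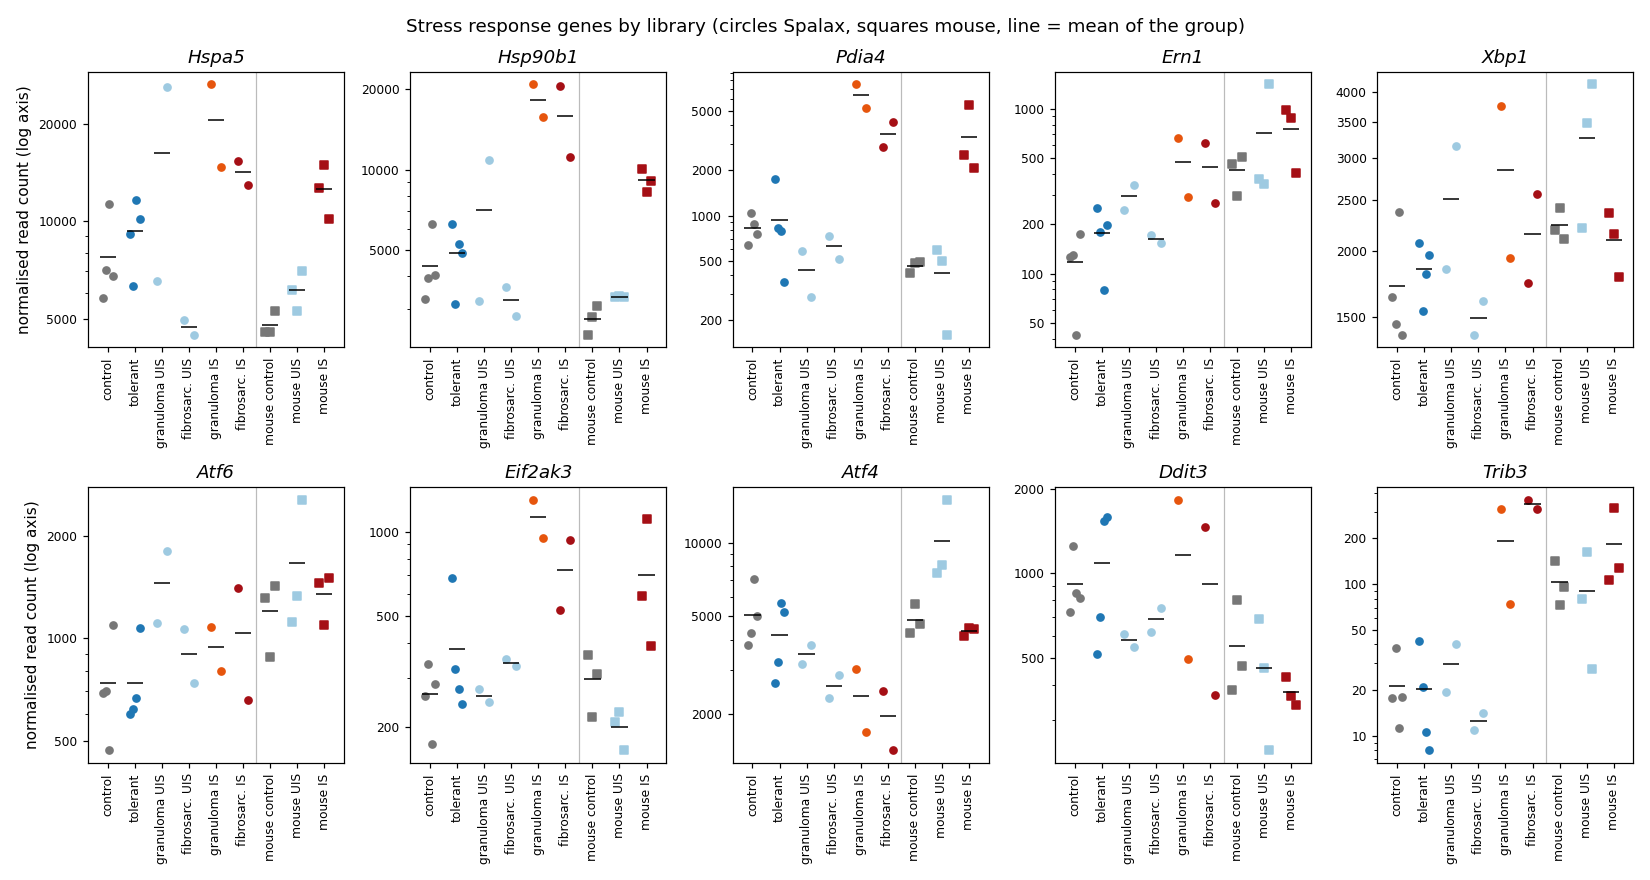
Normalised read count (log axis) of each of the 10 genes in every library, with Spalax groups as circles, mouse groups as squares and a line at the mean of each group. Pdia4 and Hsp90b1 lay higher in all IS libraries than in any muscle library of the same species, whereas Xbp1, Atf6 and Ddit3 overlapped between IS and muscle.

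In the granulomas 2 of 10 members were called against UIS, both higher, beside 24.3% of the 14735 genes tested (11.7% called higher and 12.6% lower). In the Spalax fibrosarcomas 4 of 10 were called, all higher, beside 36.3% of 14696 genes (17.4% higher, 19% lower). In the mouse fibrosarcomas 5 of 10 were called, 4 higher and 1 lower, beside 45.1% of 15220 genes (22.8% higher, 22.3% lower). Tumor IS against tolerant, which shares its 4 IS libraries with the Spalax comparisons above, gave 5 higher and 1 lower, beside 46.4% of 14578 genes (22.4% higher, 24% lower). These counts lay near the background, so the number of calls is no result about the members. Their median log2 fold change was 0.66, 1.18, 0.67 and 1.11 in these 4 comparisons, where that of all genes tested was -0.01, 0.03, 0.11 and 0.06. The libraries of the 2 groups did not overlap for 6, 7, 5 and 5 members in the same order, beside 69.8%, 74.3%, 60.2% and 41.7% of all genes tested.

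The scale mattered for direction. Dividing by total reads in place of the authors' size factors moved the median log2 fold change of all genes up by 0.74 in the granulomas, 0.8 in the Spalax fibrosarcomas, 0.65 against tolerant and 1.06 in the mouse tumors. On that scale the members called were 4, 7, 8 and 5, all of them higher, and the split of all genes was 3370 higher to 1126 lower, 5169 to 1661, 5595 to 2194 and 7555 to 1675 in the same order. With the size factors it was 1718 to 1863, 2550 to 2789, 3264 to 3502 and 3469 to 3401.

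**Figure D2:**
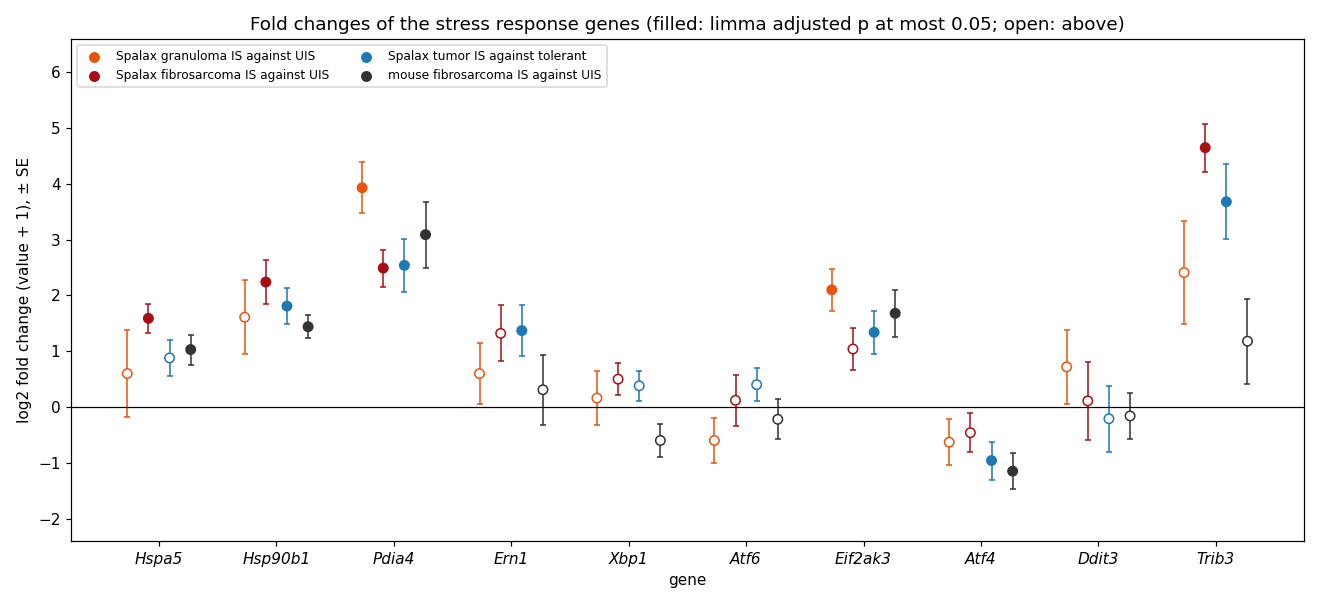
Log2 fold change (value + 1, ± SE) of the 10 genes in the 4 comparisons with tumors, filled where the limma adjusted p was at most 0.05. The points of Pdia4 are filled in all 4 comparisons, at 3.93, 2.49, 2.54 and 3.09, and those of Xbp1, Atf6 and Ddit3 in none.

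Pdia4, the disulfide isomerase, rose in all 4 comparisons. In Spalax it stood at 7500 and 5196 normalised counts in the granulomas of animals 600 and 976, against 583.7 and 287.4 in their UIS. In the fibrosarcomas of 2240 and 2230 it stood at 2847 and 4182, against 734.7 and 511.8. The IS value was higher in each of the 4 animals, by 12.8, 18.1, 3.88 and 8.17 times. The log2 fold change was 3.93 ± 0.46 (SE, adjusted p = 0.00891) in the granulomas and 2.49 ± 0.33 (adjusted p = 0.00914) in the fibrosarcomas. In mice 1019, 1023 and 512 Pdia4 rose from 585.3, 494 and 159.8 in UIS to 2526, 5462 and 2072 in IS, a log2 fold change of 3.09 ± 0.59 (adjusted p = 0.00848), and 2.51 (adjusted p = 0.0114) without the UIS of 512. The control libraries held 631.6, 1036, 881.9 and 756 in Spalax and 413.9, 484.2 and 488.6 in mouse. In Spalax 3 of the 4 controls lay above every UIS library. Among the tolerant animals Pdia4 stood at 1740 in animal 2251 and at 820.1, 790.7 and 360.5 in the other 3. Animal 2251 also had the highest fibroblast, macrophage and plasma cell sums and the lowest muscle fiber sum of its group. A link of these sums to Pdia4 was not tested. Against all 4 the tumors were higher by 2.54 ± 0.47 (adjusted p = 0.0027), and by 2.91 (adjusted p = 0.000592) without animal 2251.

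Hsp90b1, the ER member of the Hsp90 family, was higher in the IS of every animal. The Spalax IS libraries held 20894 and 15758 (granuloma 600 and 976) and 20631 and 11143 (fibrosarcoma 2240 and 2230). Their UIS held 3223, 10919, 3647 and 2825. The UIS of animal 976 was the highest of the 12 Spalax muscle libraries, where the next lay at 6284. With it in place the granuloma difference did not pass (1.61 ± 0.66, adjusted p = 0.131), and without it the difference was 2.49 (adjusted p = 0.0738). The fibrosarcoma difference was 2.24 ± 0.4 (adjusted p = 0.0174), and that against tolerant animals was 1.81 ± 0.32 (adjusted p = 0.00219). In mouse the 3 UIS values were nearly equal at 3328, 3373 and 3343, and the IS held 10070, 8236 and 9081. The mouse difference was 1.44 ± 0.21 (adjusted p = 0.00391) and remained called without any 1 library.

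Hspa5, the chaperone that holds the 3 ER sensors inactive, rose in the fibrosarcomas. In Spalax 2240 and 2230 it went from 4967 and 4453 in UIS to 15422 and 13007 in IS, a log2 fold change of 1.59 ± 0.26 (adjusted p = 0.0144). In mice 1019, 1023 and 512 it went from 6142, 5273 and 7001 to 12719, 15000 and 10166, or 1.03 ± 0.27 (adjusted p = 0.0229). With the animal as a block the mouse call was lost (adjusted p = 0.0644). The granuloma animals went opposite ways. In animal 600 Hspa5 went from 6530 in UIS to 26603 in IS, and in animal 976 from 26118 to 14769, so that the UIS library with the discordant run name held about as much Hspa5 as the highest tumor. The granuloma difference was 0.6 ± 0.78 (adjusted p = 0.598), and 1.6 (adjusted p = 0.172) without that UIS library. The controls held 5807, 7090, 11300 and 6765 and the tolerant animals 9175, 6300, 11673 and 10185. All 4 Spalax tumors lay above all 4 tolerant animals, but the difference of 0.88 ± 0.33 did not pass (adjusted p = 0.0542), while with DESeq2 it did (0.89, adjusted p = 0.021).

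**Figure D3:**
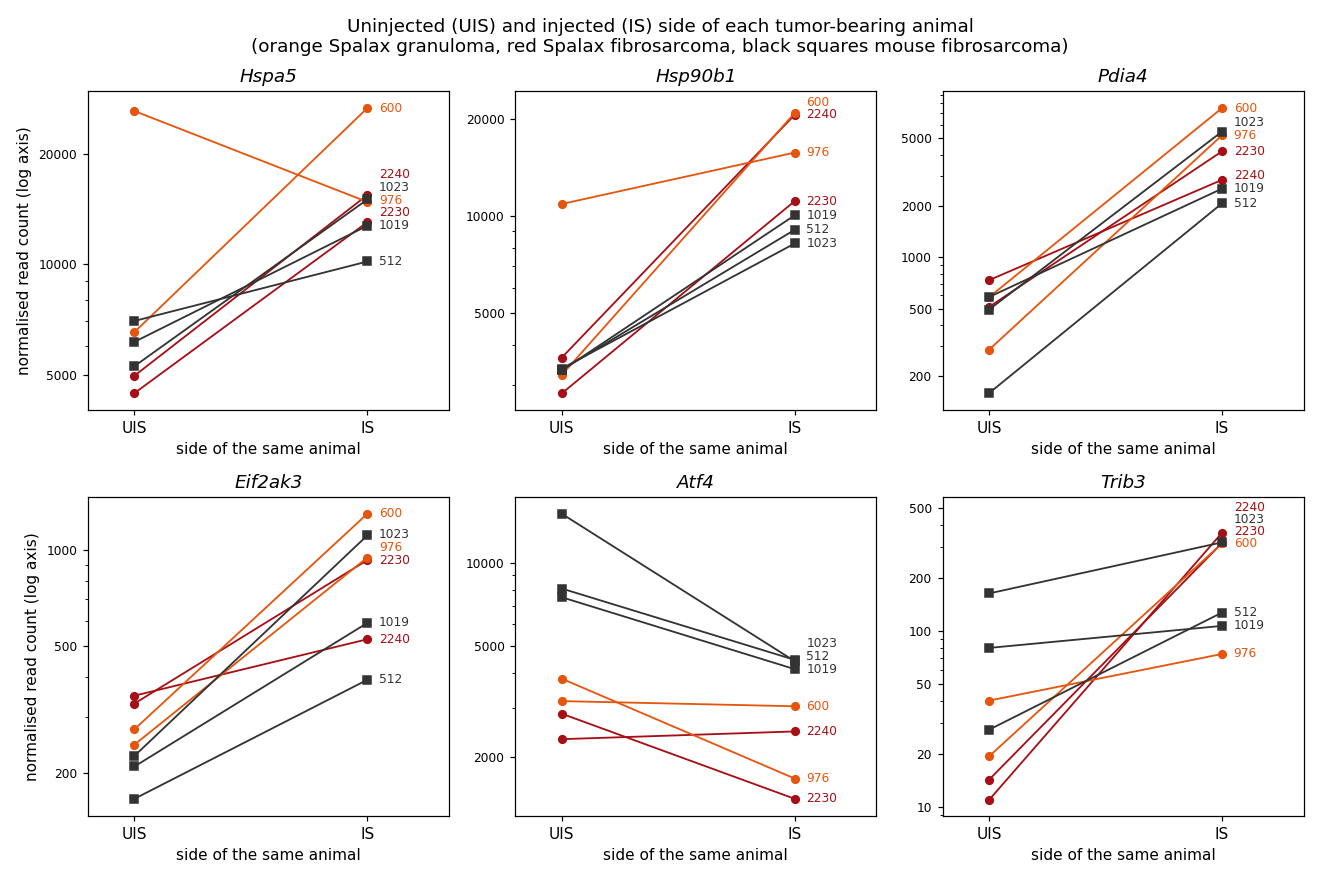
Normalised read count (log axis) of 6 of the genes on the uninjected (UIS) and injected (IS) side of each of the 4 Spalax and 3 mice with a tumor, labelled by animal number. Pdia4, Hsp90b1, Eif2ak3 and Trib3 were higher on the IS in all 7 animals, and Hspa5 in 6 of them, with animal 976 as the exception.

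Ern1, the Ire1 kinase itself, was called against the tolerant animals and in none of the 3 IS against UIS comparisons. Its levels there were 249.2, 179.6, 79.34 and 198.4, and those of the 4 Spalax tumors were 663.4, 291.8, 624.6 and 266.9, all higher. The difference was 1.37 ± 0.45 (adjusted p = 0.0331). The fibrosarcoma difference of 1.32 ± 0.5 missed the threshold (adjusted p = 0.104), and so did that of the granulomas (0.6 ± 0.55, adjusted p = 0.449). In mouse the IS of 1019 and 1023 (981.5 and 885.6) lay above their UIS (376.1 and 349.6), whereas 512 went the other way, from 1409 to 408.4. The mouse difference was 0.31 ± 0.63 (adjusted p = 0.709), and 0.96 (adjusted p = 0.12) without that UIS library.

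Xbp1, its target, overlapped between tumor and muscle. It stood at 1735 to 3760 in the Spalax IS, at 1387 to 3155 in the 12 Spalax muscle libraries, at 1784 to 2358 in the mouse IS and at 2103 to 4132 in mouse muscle. The differences were 0.16 ± 0.48 (adjusted p = 0.832) in the granulomas, 0.5 ± 0.29 (adjusted p = 0.234) in the Spalax fibrosarcomas and -0.6 ± 0.29 (adjusted p = 0.136) in mouse. Atf6 stood at 660.2 to 1408 in the Spalax IS and 469 to 1800 in Spalax muscle, and at 1095 to 1507 and 880 to 2555 in mouse. The Atf6 differences were -0.6 ± 0.4 (adjusted p = 0.308), 0.12 ± 0.46 (adjusted p = 0.856) and -0.22 ± 0.36 (adjusted p = 0.642) in the same order. The mouse value of Atf6 turned to 0.85 (adjusted p = 0.0439) when total reads set the scale, so no direction is given for it. On that scale Xbp1 passed in the Spalax fibrosarcomas (1.31, adjusted p = 0.0249), and Xbp1 and Atf6 passed against tolerant (1.03, adjusted p = 0.0172, and 1.05, adjusted p = 0.0134). With the size factors neither passed against tolerant in limma, at 0.38 ± 0.27 (adjusted p = 0.264) for Xbp1 and 0.4 ± 0.3 (adjusted p = 0.289) for Atf6. The highest Xbp1 and Atf6 among Spalax muscle came from the UIS of 976, and the highest in mouse from the UIS of 512. Without the UIS of 976 the granuloma differences were 0.54 (adjusted p = 0.527) for Xbp1 and -0.25 (adjusted p = 0.633) for Atf6, and without the UIS of 512 the mouse differences were -0.41 (adjusted p = 0.241) and 0.14 (adjusted p = 0.618).

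Eif2ak3, the Perk kinase, was higher on the IS of all 7 animals. In the granulomas it stood at 1301 and 948 against 273.8 and 245 in UIS, a log2 fold change of 2.1 ± 0.37 (adjusted p = 0.0194). In the fibrosarcomas of 2240 and 2230 it stood at 525 and 930.7 against 349.1 and 329.8, and the difference of 1.04 ± 0.37 missed the threshold (adjusted p = 0.0884). In mice 1019, 1023 and 512 it stood at 590.8, 1113 and 391.6 against 209.2, 225.9 and 165.6, or 1.68 ± 0.42 (adjusted p = 0.0197). The tolerant animals held 680.1 in 2251 and 321.9, 273.7 and 242.6 in the others, and the controls 258.4, 335.3, 174.6 and 284.5. The 2251 value exceeded that of 1 fibrosarcoma. Against tolerant the difference was 1.34 ± 0.39 (adjusted p = 0.0197), and 1.66 (adjusted p = 0.00282) without 2251.

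Atf4, the transcription factor that translation under phosphorylated eIF2α favors, was called higher in none of the 4 comparisons with tumors. The mouse UIS held 7508, 8068 and 14968 (1019, 1023 and 512) and the IS 4144, 4475 and 4427, so that all 3 tumors lay below all 3 UIS libraries. The log2 fold change was -1.15 ± 0.32 (adjusted p = 0.0278), and -0.84 (adjusted p = 0.0136) without the UIS of 512. The mouse controls held 4251, 5600 and 4634, at the level of the IS and not of the UIS. In Spalax the IS held 3049, 1678, 2476 and 1419 (600, 976, 2240, 2230) and the UIS 3182, 3829, 2323 and 2867. These differences did not pass, at -0.63 ± 0.41 (adjusted p = 0.306) in the granulomas and -0.46 ± 0.35 (adjusted p = 0.354) in the fibrosarcomas. Against the tolerant animals (2666, 3261, 5661 and 5224) the tumors were called lower by -0.96 ± 0.34 (adjusted p = 0.0424). The call against tolerant was lost with edgeR (adjusted p = 0.0561) and with no filter (0.0553). With total reads as the scale the Atf4 calls were lost (-0.09, adjusted p = 0.773 in mouse, and -0.3, adjusted p = 0.322 against tolerant) and both Spalax IS against UIS values turned positive (0.11 and 0.35).

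Ddit3 (Chop), an Atf4 target, went both ways within each Spalax diagnosis. The granuloma of 600 (1826) and the fibrosarcoma of 2240 (1459) were above their UIS (609 and 619.5), while the fibrosarcoma of 2230 (369.4) and the granuloma of 976 (496) were below theirs (749.2 and 545.3). The differences were 0.72 ± 0.66 (adjusted p = 0.452) in the granulomas and 0.11 ± 0.7 (adjusted p = 0.917) in the fibrosarcomas. The latter passed in either direction depending on the tumor kept, at 1.1 (adjusted p = 0.0354) without the IS of 2230 and -0.88 (adjusted p = 0.0449) without that of 2240. In mouse the IS held 338.4 to 428.5 and the UIS 234.7 to 686.9 (-0.16 ± 0.42, adjusted p = 0.778). Against the tolerant animals the difference of the Spalax tumors in limma was -0.21 ± 0.59 (adjusted p = 0.789).

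Trib3, a pseudokinase downstream of Atf4 and Ddit3, had the largest fold change of the 10 in the Spalax fibrosarcomas. It went from 10.91 to 360.2 in animal 2240 and from 14.22 to 314.8 in 2230, a log2 fold change of 4.65 ± 0.43 (adjusted p = 0.00511). In the granuloma animals it went from 19.3 to 313.6 in 600 but only from 40.04 to 73.71 in 976, and the difference of 2.41 ± 0.92 missed the threshold (adjusted p = 0.113; 0.0129 with DESeq2). All 12 Spalax muscle libraries lay between 8.042 and 42.04, with a median of 17.79. Against the tolerant animals the tumors were higher by 3.68 ± 0.67 (adjusted p = 0.00241). In mouse the IS held 106.5, 317.9 and 126.8 against 79.81, 162.9 and 27.35 in UIS, higher in each animal, with a difference of 1.18 ± 0.76 that did not pass (adjusted p = 0.239). Without 1 library it ran from 0.51, without the UIS of 512, to 1.77, without that of 1023.

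With 2 animals per Spalax diagnosis, a fit of IS against UIS without 1 library held a lone library in 1 group. Calls lost in such fits are therefore no result about a member. In the granulomas the log2 fold change of Pdia4 then ran from 3.42 to 4.44 and that of Eif2ak3 from 1.87 to 2.32. In the fibrosarcomas Trib3 ran from 4.47 to 4.83, Pdia4 from 2.21 to 2.77, Hsp90b1 from 1.8 to 2.68 and Hspa5 from 1.47 to 1.71. In mouse the Hspa5 call was lost without the IS of 1019 or 1023 or the UIS of 1019 or 1023 (adjusted p up to 0.096), that of Atf4 without any IS or the UIS of 1023 (up to 0.0873) and that of Eif2ak3 without the IS of 1019 or 1023 or the UIS of 1023 (up to 0.0538). Against tolerant, Pdia4, Hsp90b1 and Trib3 remained called without any 1 library. The calls of Eif2ak3, Ern1 and Atf4 against tolerant were lost without tolerant 2218, 2261 or 2375, with adjusted p-values up to 0.0595, 0.0813 and 0.117. They were also lost without the IS of 600 for Eif2ak3 (0.0509), without the IS of 600 or 2240 for Ern1 (up to 0.0828) and without the IS of 976, 2240 or 2230 for Atf4 (up to 0.106).

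Among the other genes of the pathway, those of ER folding were 15 genes. Of these 12 rose and 1 fell in the Spalax fibrosarcomas (median log2 fold change 1.55 against 0.03 over all genes), 11 rose and 1 fell in the mouse tumors (1.51 against 0.11), 4 rose and none fell in the granulomas (0.99 against -0.01), and 12 rose and 1 fell against tolerant (1.22 against 0.06). The share of all genes called was 36.3%, 45.1%, 24.3% and 46.4% in the same order, and the granuloma count lay near it. Calr, a calcium-binding chaperone of glycoproteins, went from 4476 and 5175 in granuloma UIS to 24161 and 19487 in IS (2.17 ± 0.38, adjusted p = 0.0191) and from 4025 and 4121 to 18974 and 16150 in the fibrosarcomas (2.1 ± 0.25, adjusted p = 0.00771). Hspa13, an Hsp70 relative of the microsomes, rose by 2.04 ± 0.34 (adjusted p = 0.0171) in the granulomas, and Creld2, an ER stress-inducible disulfide isomerase, by 2.05 ± 0.33 (adjusted p = 0.014) in the Spalax fibrosarcomas. In mouse the disulfide isomerase Pdia3 rose by 2.21 ± 0.3 (adjusted p = 0.00321) and the oxidase Ero1l by 2.74 ± 0.74 (adjusted p = 0.025). The gene that fell was Dnajb9 in each case, a co-chaperone of Hspa5, at -1.6 ± 0.24 (adjusted p = 0.0119) in the Spalax fibrosarcomas and -2.13 ± 0.5 (adjusted p = 0.0153) in mouse. Dnajb9 falls outside the naming rule for this list and was chosen after its values were seen. With total reads as the scale 13, 14, 9 and 12 of the 15 were called higher in the order given above, and Dnajb9 was called lower in the Spalax fibrosarcomas alone. On that scale 5169 of 14696, 7555 of 15220, 3370 of 14735 and 5595 of 14578 genes were called higher.

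The list of ER quality control and degradation had a median log2 fold change of 0.68, 0.37 and 0.39 in the Spalax fibrosarcomas, granulomas and mouse tumors. Of its genes 4 rose and 3 fell in the Spalax fibrosarcomas, 2 rose and 1 fell in the granulomas, and 2 rose and 2 fell in the mouse tumors, of 12, 12 and 11 tested, beside 36.3%, 24.3% and 45.1% of all genes called. With total reads as the scale 8 rose and 0 fell, 4 rose and 1 fell, and 8 rose and 1 fell, so that most calls in the lower direction depended on the scale. On that scale 6830 of 14696, 4496 of 14735 and 9230 of 15220 genes were called. Herpud1, an ER membrane protein of the degradation complex, fell in all 3. It went from 8463 and 18840 to 1947 and 1413 in the granulomas (-2.93 ± 0.5, adjusted p = 0.0177), from 5252 and 7020 to 842.2 and 1927 in the Spalax fibrosarcomas (-2.25 ± 0.47, adjusted p = 0.0257) and from 3091, 3747 and 5538 to 878.7, 720.7 and 836.9 in mouse (-2.3 ± 0.27, adjusted p = 0.00236). With total reads as the scale the Herpud1 value of the Spalax fibrosarcomas was -1.44 (adjusted p = 0.0652). Derl3 fell by 2.45 ± 0.5 on the log2 scale in the Spalax fibrosarcomas (adjusted p = 0.0247), a call lost with total reads as the scale (adjusted p = 0.051). Sec61b, a subunit of the translocation channel, rose in the granulomas (2.69 ± 0.38, adjusted p = 0.0122).

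**Figure D4:**
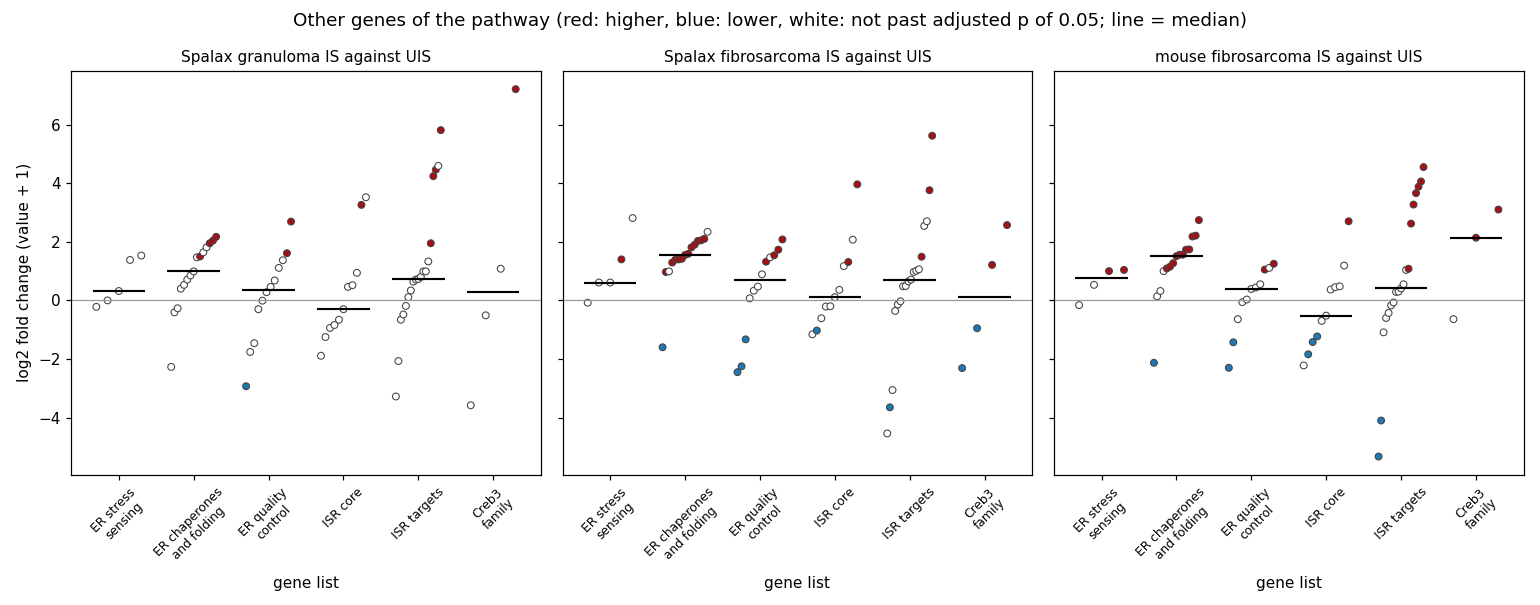
Log2 fold change (value + 1) of each tested gene of the 6 pathway lists in the 3 IS against UIS comparisons, red where called higher, blue where called lower and white otherwise, with a line at the median of each list. The ER folding list has its median at 0.99, 1.55 and 1.51, whereas the core list of the integrated stress response (ISR) has it at -0.3, 0.11 and -0.52. With total reads as the scale the folding medians are 1.73, 2.36 and 2.58 and the core medians 0.44, 0.92 and 0.55. The median of all genes on that scale is 0.72, 0.83 and 1.16.

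The core list of the integrated stress response had a median log2 fold change of -0.3, 0.11 and -0.52 in the granulomas, Spalax fibrosarcomas and mouse tumors, where that of all genes was -0.01, 0.03 and 0.11. Of its 11 genes 1 rose in the granulomas, 2 rose and 1 fell in the Spalax fibrosarcomas, and 1 rose and 3 fell in the mouse tumors, beside 24.3%, 36.3% and 45.1% of all genes called. With total reads as the scale 2, 5 and 4 rose and 0 fell, and the medians were 0.44, 0.92 and 0.55. On that scale the median of all genes was 0.72, 0.83 and 1.16. There 4496 of 14735, 6830 of 14696 and 9230 of 15220 genes were called. Eif2ak2 (Pkr), the eIF2α kinase that double-stranded RNA activates, rose in all 3, by 3.26 ± 0.69 (adjusted p = 0.0292), 3.96 ± 0.44 (adjusted p = 0.00676) and 2.7 ± 0.4 (adjusted p = 0.00387). Its Spalax levels were 114.7, 227.2, 262.5 and 390.4 in IS against 14.13 to 19.9 in UIS. Ppp1r15a (Gadd34), which guides the phosphatase of eIF2α, rose in the Spalax fibrosarcomas (1.31 ± 0.26, adjusted p = 0.0231), and the transcription factor Cebpb fell in mouse (-1.84 ± 0.49, adjusted p = 0.023), which with total reads was -0.77 (adjusted p = 0.2). In mouse Ppp1r15a stood at 12306 in the UIS of 512, against 836.8 and 1357 in the other UIS libraries.

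Of the 20 listed ISR targets 19, 18 and 19 were tested in the granulomas, Spalax fibrosarcomas and mouse tumors. In the granulomas 4 rose, in the Spalax fibrosarcomas 3 rose and 1 fell, and in the mouse tumors 7 rose and 2 fell. The share of all genes called was 24.3%, 36.3% and 45.1%, and the counts lay near or under it. The medians were 0.73, 0.68 and 0.41. With total reads as the scale 7, 5 and 14 rose and 0, 1 and 2 fell, beside 4496 of 14735, 6830 of 14696 and 9230 of 15220 genes called. In the granulomas the serine synthesis enzyme Phgdh went from 10.85 and 8.244 to 897.2 and 383.1 (5.81 ± 0.69, adjusted p = 0.00894) and asparagine synthetase Asns from 48.24 and 90.69 to 2196 and 992.1 (4.46 ± 0.59, adjusted p = 0.0107). The fibrosarcomas of Spalax differed from each other in Asns, at 15828 in 2240 and 201.5 in 2230. Slc7a5, a transporter of large neutral amino acids, rose there by 3.76 ± 0.53 (adjusted p = 0.0108), and the cytokine Gdf15 went from 1.212 and 7.108 to 148.8 and 287.2 (5.62 ± 0.84, adjusted p = 0.0121). In mouse the cystine transporter Slc7a11 rose (4.55 ± 0.87, adjusted p = 0.00815). The glutathione-degrading enzyme Chac1 fell from 1740, 3340 and 4025 to 44.45, 108.5 and 71.06 (-5.33 ± 0.46, adjusted p = 0.00128).

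Of all genes 24.3%, 36.3% and 45.1% were called in the granulomas, Spalax fibrosarcomas and mouse tumors. Limma called none of the 5 listed genes of ER stress sensing in the granulomas. In the Spalax fibrosarcomas 1 of 5 rose, and in mouse 2 of 4 tested rose. These were Atf6b, a relative of Atf6, in Spalax (1.4 ± 0.3, adjusted p = 0.0271) and mouse (1 ± 0.33, adjusted p = 0.0469), and Mbtps1, the protease that cleaves Atf6, in mouse (1.04 ± 0.27, adjusted p = 0.0233). With the animal as a block both mouse calls were lost (adjusted p = 0.0854 and 0.0506). Beside the same shares, 1 of 4 genes of the Creb3 family rose in the granulomas. In the Spalax fibrosarcomas 2 rose and 2 fell, and in mouse 2 of 3 tested rose. With total reads as the scale 2 rose and 0 fell in each, beside 4496 of 14735, 6830 of 14696 and 9230 of 15220 genes called. The largest pathway change belonged to Creb3l1 (Oasis), an ER-bound factor of collagen-secreting cells. It went from 10.85 and 17.67 to 1930 and 2510 in the granulomas (7.21 ± 0.51, adjusted p = 0.00492), from 44.86 and 22.75 to 267.4 and 142.1 in the Spalax fibrosarcomas (2.57 ± 0.59, adjusted p = 0.0324) and from 83.44, 28.88 and 14.4 to 322, 154.8 and 483.2 in mouse (3.1 ± 0.74, adjusted p = 0.0168). The fibroblast marker sums were also highest in the granulomas, at 1891385 (600) and 898827 (976), against 115072 (2240) and 432155 (2230) in the Spalax fibrosarcomas. Within each diagnosis the tumor with the higher sum had the lower Creb3l1. A link between Creb3l1 and these sums was not tested. Creb3l2 rose in mouse (2.14 ± 0.49, adjusted p = 0.0148), and Creb3l3 fell in the Spalax fibrosarcomas (-2.31 ± 0.51, adjusted p = 0.0289), a call lost with the animal as a block (adjusted p = 0.0591), with DESeq2 (0.0523), with total reads (0.0655), in 1 model over the species (0.0737) and with no filter (0.0587). In that 1 model the Creb3l1 call of the fibrosarcomas was lost too (adjusted p = 0.0648).

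In the granulomas and Spalax fibrosarcomas a fit of IS against UIS without 1 library held a lone library in 1 group. Calls of pathway genes lost there are therefore no result about these genes. In mouse the calls of Mbtps1 and Atf6b were lost without the UIS or IS of 1019 or 1023 (adjusted p up to 0.0875 and 0.154). Those of Ero1l were lost without any 1 library but the IS of 1019 (up to 0.0754), those of Cebpb without any UIS or the IS of 1019 (up to 0.0635) and those of Creb3l1 without the IS of 1019 or the UIS of 1023 (up to 0.0541). Leaving out 1 library moved the log2 fold change of Creb3l1 in mouse to 3.76 (UIS of 1019), of Ero1l to 3.65 (IS of 1019) and of Slc7a11 to 3.92 (IS of 1023) and 3.81 (UIS of 512). In the Spalax fibrosarcomas it moved Gdf15 to 6.55 (UIS of 2230) and 4.68 (UIS of 2240) and Herpud1 to -2.85 (IS of 2230) and -1.66 (IS of 2240), and in the granulomas Phgdh to 5.2 (IS of 600) and 6.42 (IS of 976). With no filter Atf6b was not called in mouse (adjusted p = 0.0682).

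The remaining comparisons, among muscle libraries and between tumors, called no member with limma. Tolerant against control asks what the injected but tumor-free animals changed. There 0 of 14020 genes passed (0%, with 5.23% at an unadjusted p under 0.05, 0 calls with edgeR and 60 with DESeq2), no member reached an unadjusted p under 0.05, edgeR and DESeq2 called 0 members, and no member was free of overlap beside 3.86% of all genes. Pooled UIS against control gave 0 of 13909 genes (0%; edgeR 0, DESeq2 516) and 0 members, also with edgeR and DESeq2. At an unadjusted p under 0.05 lay 4 members beside 16.6% of all genes, namely Atf4 (-0.71 ± 0.24, adjusted p = 0.229), Ddit3 (-0.51 ± 0.21, adjusted p = 0.273), Ern1 (1.04 ± 0.45, adjusted p = 0.286) and Pdia4 (-0.7 ± 0.3, adjusted p = 0.282). The groups overlapped for all 10 members, beside 12.7% of genes without overlap. Mouse UIS against control gave 0 of 14792 genes (0%, with 11% at an unadjusted p under 0.05, edgeR 0, DESeq2 342). Only Atf4 lay under an unadjusted p of 0.05 (1.01 ± 0.33, adjusted p = 0.441), and 3 members (Atf4, Hspa5 and Hsp90b1) were higher in UIS without overlap, beside 21.2% of all genes. Neither edgeR nor DESeq2 called a member there.

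Between the 2 kinds of Spalax tumor, fibrosarcoma IS against granuloma IS gave 0 of 14562 genes (0%, with 4.06% at an unadjusted p under 0.05, edgeR 0, DESeq2 153). No member lay under an unadjusted p of 0.05, and edgeR and DESeq2 called none. The libraries did not overlap for 3 members, beside 31.4% of all genes. Pdia4 (-0.86 ± 0.39, adjusted p = 1) and Eif2ak3 (-0.67 ± 0.41, adjusted p = 1) were lower in both fibrosarcomas than in both granulomas, and Trib3 (1.14 ± 0.77, adjusted p = 1) was higher. The test of whether the tumor effect differed between the diagnoses gave 0 of 15584 genes (0%, with 4.92% at an unadjusted p under 0.05, edgeR 0, DESeq2 88) and 0 members with all 3 tools, with Pdia4 alone under an unadjusted p of 0.05 (-1.44 ± 0.61, adjusted p = 0.946). The test of whether the fibrosarcoma effect differed between Spalax and mouse called 583 of 12816 genes (4.55%) but 0 of 10 members. At an unadjusted p under 0.05 lay 2 members, Trib3 (3.47 ± 1.07, adjusted p = 0.0996) and Xbp1 (1.1 ± 0.44, adjusted p = 0.179). The Spalax and mouse log2 fold changes behind them were 4.65 and 1.18 for Trib3 and 0.5 and -0.6 for Xbp1, and that of Xbp1 in mouse turned to 0.46 with total reads. edgeR called 0 members and DESeq2 called Trib3 (adjusted p = 0.00924). Without the UIS of mouse 512 limma called Trib3 too (4.14, adjusted p = 0.0318). Of 65 pathway genes 1 was called, Gdf15 (5.06 ± 1.18, adjusted p = 0.0467). It was not called with the animal as a block (adjusted p = 0.096), with edgeR (0.0717) or without any 1 of the 10 libraries (0.0588 to 0.2).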

How the data were processed

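RNA-seq libraries were prepared by the authors with a stranded kit and sequenced single-end. Reads were trimmed with Trimmomatic, mapped with TopHat to the published Spalax genome or a mouse reference (GRCm38 per the labels' processing notes) and counted per gene with HTSeq. The deposited values are a signal, namely read counts divided by 1 size factor per library, in 1 table per species. In all libraries 100% of values were whole multiples of the value of 1 read (0.517 to 1.44) within 0.001, and whole reads were recovered from them.

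Genes that reached a value of 10 in a number of libraries equal to the size of the smaller group were tested on log2(value + 1) with limma 3.58.1 (trend) in R 4.3.3, within each species and for the groups compared, with Benjamini-Hochberg adjustment over all genes. The interaction of species used the genes shared by symbol. Fold changes of low genes are understated by the pseudocount of 1. Scripts were tested on simulated data. Alternatives were a pseudocount of 5, no filter, scaling by total reads, edgeR 4.0.16 and DESeq2 1.42.0 on the recovered reads, 1 model over a species, leaving out each library and the animal as a block. In a fit with a lone library, that library was assumed to vary like the others.

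IS and UIS libraries with the same number came from 1 animal per the labels, so the numbers pair them, although the run name of the UIS library of 976 carries another animal number. Deviations from the group means correlated by 0.01 within granuloma animals, 0 within fibrosarcoma animals, and 0.13, 0.05 and 0.18 within mice 1019, 1023 and 512. The libraries of a group came from different animals, so p-values measure the spread between animals. Mouse coordinates and the Xbp1 sequence are from GENCODE M21. All 10 members were named in every comparison. Of 6 pathway lists, the 2 called genes with the largest change and no overlap were named for each IS against UIS comparison and list, and 1 gene of this rule is not reported here. Members, lists and tests were chosen with earlier results of these data known. Marker lists are given as summed levels. Depth differed by less than 2-fold within a species, and a value of 10 stood for 6.95 to 19.3 reads.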

Additional observations from a re-analysis of the deposited data

Results flagged for a closer look

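Dixon's test was run on unlogged normalised counts in 40 sets of 4 Spalax libraries (10 members in control, tolerant, tumor-bearing UIS and tumor IS). In 4 sets a library lay far from the other 3, where chance nominally flags about 1 in 20. That rate holds for values from a single normal population, which was not tested. The tumor-bearing UIS and tumor IS sets pool granuloma and fibrosarcoma animals. The UIS of granuloma animal 976 held 26118 normalised counts of Hspa5, against 4453 to 6530 in the other UIS libraries, and 10919 of Hsp90b1, against 2825 to 3647. Its Pdia4, at 287.4, was the lowest of all Spalax libraries, and its muscle fiber sum of 632189 was the lowest among the Spalax muscle libraries. The run name of this library carries the number 979. Tolerant animal 2375 held 1071 of Atf6, against 599.1 to 669.1 in the other tolerant animals. The granuloma of animal 976 held 73.71 of Trib3, against 313.6 to 360.2 in the other 3 Spalax tumors.

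The fibrosarcoma effect on Gdf15 differed between the species in limma's interaction test, by 5.06 ± 1.18 on the log2 scale (adjusted p = 0.0467). It rose in both Spalax animals, whereas the mouse values were 4.652, 21.35 and 14.21 in IS and 9.674, 4.125 and 10.08 in UIS. Over the alternatives the adjusted p reached 0.2, and the call was lost without any 1 of the 10 libraries.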

How the results depend on the processing

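Scaling by total reads turned the direction of Ddit3 (0.44 against tolerant, 0.9 in mouse), Atf4 (0.11 in the granulomas, 0.35 in the Spalax fibrosarcomas), Atf6 (0.14 in the granulomas, 0.85 in mouse) and Xbp1 (0.46 in mouse). It called 4 members and 26 pathway genes in the granulomas and 7 members in the Spalax fibrosarcomas. 1 model over all libraries of a species called 4 members, 26 pathway genes and 6314 genes in the granulomas, 1 gene in tolerant against control, 1 in UIS against control, 19 between the tumors and 3 in the interaction of diagnoses. DESeq2 called 25 pathway genes and 5383 genes in the granulomas, 60 genes in tolerant against control, and 1 pathway gene in each of UIS against control (516 genes), fibrosarcoma against granuloma IS (153), mouse UIS against control (342) and the interaction of diagnoses (88). In the interaction of species DESeq2 called 1 member, 3 pathway genes and 1899 genes, edgeR 0 pathway genes and a pseudocount of 5 gave 2. With no filter that number was 0, and tolerant against control had 2 genes.

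With the animal as a block the interaction of species held 0 pathway genes and 97 genes, and the mouse tumors 4 members in place of 5 (Hspa5 lost). The block also lost Mbtps1 and Atf6b in mouse, Creb3l3 in the Spalax fibrosarcomas and Gdf15 in the interaction, and changed no other call of a gene named by the rule. Of 73 results on single genes, 73 kept direction and call with a pseudocount of 5, 71 with edgeR, 69 with no filter and 68 with DESeq2. Only 50 of the 73 did so with total reads as the scale, where 7 reversed. In 1 model over the species 67 of 71 did so, and with the animal as a block 58 of 63. Leaving out 1 library reversed the direction in 15 of 388 fits of single genes.

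Leaving out 1 library, which could leave a lone library in an arm, gave 3 to 6 members called against tolerant, 0 to 0 members, pathway genes and genes in the granulomas, and 0 to 8 members, 0 to 44 pathway genes and 0 to 7900 genes in the Spalax fibrosarcomas. In mouse it gave 2 to 5 members, 17 to 36 pathway genes and 4258 to 7289 genes, and 0 to 4 genes in UIS against control. In the interaction of species it gave 0 to 1 members, 0 to 2 pathway genes and 10 to 983 genes, and 0 to 3 genes in that of diagnoses. The log2 fold change of Ddit3 ran from -0.58 to 0.18 against tolerant, -0.22 to 1.66 in the granulomas, -0.88 to 1.1 in the Spalax fibrosarcomas and -0.58 to 0.19 in mouse. Hspa5 ran from -0.4 to 1.6 and Xbp1 from -0.32 to 0.64 in the granulomas. Atf6 ran from -0.42 to 0.67 in the Spalax fibrosarcomas and -0.46 to 0.14 in mouse, and Ern1 from -0.04 to 0.96 in mouse. The cause of these shifts was not tested beyond the smaller number of libraries. Trib3 in Spalax muscle, at 8.042 to 42.04 normalised counts, was the member with the fewest reads.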
